A study of Mus musculus with 62 samples.

Results

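Of the genes read by RNA sequencing of mouse cerebellum, 9 that mark inhibitory interneurons or make their transmitters were followed. They were Gad1, Gad2, Slc32a1, Slc6a5, Pvalb, Kit, Lgi2, Prkcd and Tfap2b, chosen by name from 47643 gene symbols. The names were those of GABA and glycine transmitter genes and of genes of molecular layer or Golgi cells. Earlier results of these data were known when the genes were chosen. All 9 were among the 14399 symbols with a mean of at least 1 TPM (a transcript level scaled for gene length and to a total of 1000000 in each library) that entered the tests. The libraries came from female mice that were 2 months old when injected with cachectic melanoma cells (CAC, a tumour that causes wasting), with non-cachectic melanoma cells (NCAC), or with a mock injection. The cerebellum was collected after 2, 4, 6 or 8 weeks (wk), which gave 12 groups of 5 libraries, except CAC at 8 wk with 7 (62 libraries in all). The sample fields name C57BL6/J as the strain while the design text of the series says NCI Ath/nude, so the strain is uncertain, and the labels name no melanoma line or transgene.

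The cerebellar cortex holds several kinds of inhibitory interneuron. Basket and stellate cells of the molecular layer release GABA onto Purkinje cells and onto each other, and Golgi cells in the granular layer release GABA, and in many cells also glycine, onto granule cells. GABA is made from glutamate by the decarboxylases Gad1 and Gad2 and packed into vesicles by Slc32a1 (VGAT), which also carries glycine, while Slc6a5 (GlyT2) takes glycine up into glycinergic terminals. Purkinje cells use GABA too, and Pvalb, Gad1, Gad2 and Slc32a1 are not restricted to interneurons. In whole tissue, fewer cells of a type and less RNA per cell cannot be told apart.

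Lgi2, Prkcd and Pvalb were higher in CAC than in mock cerebellum at 8 wk, and the other 6 genes did not pass the test. The bases upstream of the transcription start are shown for Pvalb (250) and Prkcd (248), the genes that rose for which at least 200 of the 250 bases upstream lie outside annotated exons (RefSeq, build GRCm38.p6, minus strand, 5′ to 3′, ending at the base before the start for Pvalb and 2 bases further upstream for Prkcd). Capitals mark matches to the motif searches described next. The window of Pvalb is chr15:78206401-78206650 and that of Prkcd is chr14:30626211-30626458.
Pvalb: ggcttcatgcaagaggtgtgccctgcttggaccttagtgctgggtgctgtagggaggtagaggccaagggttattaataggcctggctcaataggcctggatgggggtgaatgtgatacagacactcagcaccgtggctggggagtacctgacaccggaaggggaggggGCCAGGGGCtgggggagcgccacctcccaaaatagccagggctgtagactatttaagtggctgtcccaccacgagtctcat
Prkcd: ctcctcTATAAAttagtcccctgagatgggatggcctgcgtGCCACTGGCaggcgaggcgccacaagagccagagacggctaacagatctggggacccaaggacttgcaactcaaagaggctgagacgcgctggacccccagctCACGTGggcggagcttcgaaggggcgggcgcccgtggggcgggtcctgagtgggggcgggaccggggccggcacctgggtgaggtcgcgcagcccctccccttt

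A total of 5 motifs was searched on both strands of the 250 bases upstream of the start of all 9 genes. The AP-2 motif GCCNNNGGC was searched because Tfap2b encodes an AP-2 transcription factor. It matched in 5 of the 9 windows (Gad2, Pvalb, Kit, Lgi2 and Prkcd), against 13.7% of 32851 mouse promoter windows of the same length. The 5 windows with an AP-2 match ranged from 58.4% to 72.4% in G and C, and the others from 46.4% to 62.4%. The median over all windows was 52.4%, and the part of base composition in the AP-2 count was not tested. The matches began at position −81 in Pvalb, −209 in Prkcd and −89 in Lgi2, counted from the start. The E-box CACGTG matched in Prkcd alone (position −106), against 6.02% of all windows, and TATAAA matched in Gad1 and Prkcd, against 12.4%. The RefSeq start used for Gad1 lies 9057 bases downstream of the gene's start in GENCODE M21, and that for Tfap2b 3140 bases. The windows of Gad1 and Tfap2b thus lie inside the annotated genes. Those of Lgi2, Slc6a5, Gad2 and Kit run 156, 153, 122 and 71 bases into the annotated gene. The AP-2 matches of Lgi2 at −89 and of Gad2 at −121 lie in that part. The glucocorticoid receptor motif and the cAMP response element TGACGTCA had no match in these 9 windows, against 0.387% and 1.55% of all windows. A match is a string of letters and does not show that a factor binds there.

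The transcripts differed widely in level. Averaged over the 62 libraries, Pvalb, a calcium-binding protein of fast-firing neurons, stood at 1681 TPM, Gad1 at 288 TPM, Slc32a1 at 181 TPM and Kit at 134 TPM. Lgi2 (109 TPM) and Gad2 (104 TPM) were next, followed by Prkcd at 69.3 TPM, Tfap2b at 37.9 TPM and Slc6a5 at 29.8 TPM. The order held in 62 of 62 libraries for each neighbouring pair except 3: Kit exceeded Lgi2 in 51 libraries, Tfap2b exceeded Slc6a5 in 55, and Lgi2 exceeded Gad2 in 31, so the levels of Lgi2 and Gad2 were not ordered. Pvalb varied least between libraries of one group (within-group SD of 0.05 on the log2 scale) and Slc6a5 most (0.24), against a median of 0.11 over all tested genes. In the plot of values by group, the CAC libraries of Lgi2 spread upward from 4 wk on.

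**Figure D1:**
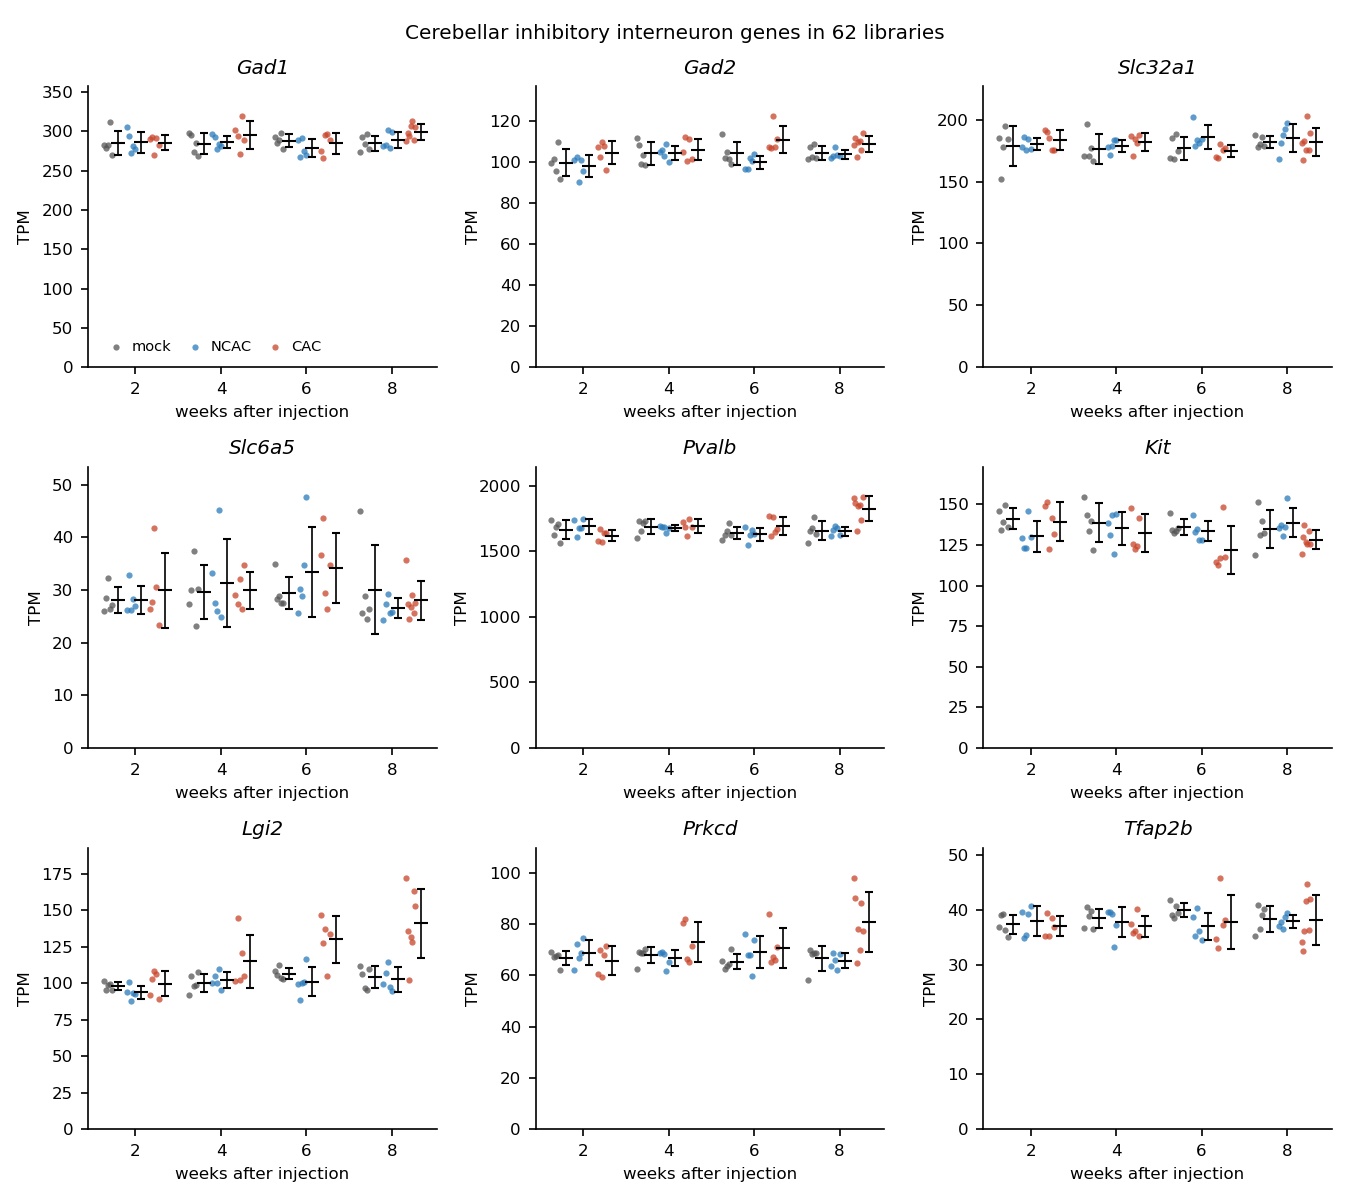
Level of each of the 9 genes in TPM (vertical axes, from 0) by weeks after injection, 1 point per library, with the group mean and SD in black beside the points; grey is mock, blue NCAC and red CAC. At 8 wk the CAC means of Lgi2 (141 TPM), Prkcd (80.9 TPM) and Pvalb (1824 TPM) stand above the mock means (104, 66.7 and 1656 TPM), with 1 CAC library of each gene inside the mock range for Lgi2 and Prkcd and 2 for Pvalb.

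The first question was whether the genes of GABA synthesis and loading changed in animals bearing either tumour. Gad1, the decarboxylase that makes most of the brain's GABA, stood between 279 TPM in NCAC at 6 wk and 299 TPM in CAC at 8 wk as group means, a range of 1.07-fold. In week 8 its lowest, median and highest libraries were 287, 298 and 314 TPM in CAC (n = 7). The mock libraries were at 273, 284 and 297 TPM in the same order (n = 5). The CAC group reached higher, with 4 of its 7 libraries above every mock library, but the difference of 0.07 ± 0.035 (log2, SE) did not pass limma's test after Benjamini-Hochberg adjustment over all tested genes (adjusted p = 0.146).

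Gad2, the decarboxylase held mainly at terminals, differed between the tumours at 6 wk. The 5 CAC libraries read 107.2, 107.1, 122, 107.3 and 111 TPM, and the 5 NCAC libraries 96.8, 96.8, 102, 100.4 and 104 TPM. The lowest CAC library lay above the highest NCAC library, in a comparison where 9.45% of all tested genes were called. How many other genes separated in this way was not counted. The difference was 0.15 ± 0.042 (log2, SE) and passed (limma adjusted p = 0.0214). Against mock at 6 wk (114, 102, 105, 102 and 99.2 TPM) the groups overlapped, and the difference of 0.09 ± 0.042 did not pass (limma adjusted p = 0.285). The call against NCAC was lost when libraries were rescaled by the median of ratios (difference 0.11, limma adjusted p = 0.113), after quantile normalization (adjusted p = 0.0649), and when the compared groups were fitted alone (adjusted p = 0.0695). It was also lost without CAC replicate 3, the library at 122 TPM (adjusted p = 0.0947), and without NCAC replicate 2 (adjusted p = 0.0594).

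The proportion of Gad1 to Gad2 was read as well. The ratio of their TPM levels, which are scaled for length, was 2.76 ± 0.13 (SD, n = 62 libraries), with a range from 2.41 to 3.02. The lowest group mean was CAC at 6 wk, at 2.57 ± 0.13, and the highest NCAC at 2 wk, at 2.92 ± 0.10 (SD, n = 5 each). Slc32a1, the shared vesicle transporter, had group means from 174 to 186 TPM and passed in none of the 17 comparisons made. At 8 wk its difference between CAC and mock was 0.00 ± 0.044 (log2, SE), with a 95% interval from −0.09 to 0.08. The exons of Slc32a1 overlap those of the antisense gene Gm14205, whose mean level was 0.31 TPM.

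Slc6a5, the transporter of glycinergic neurons, separated libraries rather than groups. Its 5 highest libraries were NCAC 6 wk replicate 5 at 47.7 TPM, NCAC 4 wk replicate 4 at 45.2 TPM, mock 8 wk replicate 1 at 44.99 TPM, CAC 6 wk replicate 2 at 43.6 TPM and CAC 2 wk replicate 3 at 41.8 TPM. The next library was at 37.5 TPM and the lowest at 23.2 TPM. The high libraries thus came from all 3 treatments and all 4 weeks. No group comparison of Slc6a5 passed. The largest difference from mock among CAC groups was 0.19 ± 0.15 at 6 wk (log2, SE; limma adjusted p = 0.537).

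Glycinergic neurons also lie in the deep cerebellar nuclei, so markers of the nuclei were read in the same libraries. The 5 libraries highest in Slc6a5 were also the 5 highest in Slc17a6, the vesicular glutamate transporter of nuclear projection neurons (26.2 to 34.8 TPM), and the 5 highest in the transcription factor Meis2 (3.28 to 4.74 TPM). Of 5 nuclei markers, these 2 passed the level filter. After the group means were subtracted, Slc6a5 followed the mean of the 2 markers across the 62 libraries (Pearson's r = 0.862, Spearman's rho = 0.775, permutation within groups, adjusted p = 0.00015 for each over 45 relations, from the smallest p that 100000 permutations give, 1e-05). Without the 2 libraries farthest from the median r was 0.822, and without the 5 highest libraries it was 0.742. The summed level of all 5 nuclei markers ranged from 13.6 to 39.8 TPM in mock, 11.7 to 18.9 TPM in NCAC and 12.6 to 28.8 TPM in CAC at 8 wk. The part of dissection in these levels was not tested.

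Kit, the receptor tyrosine kinase carried by basket and stellate cells, ran the other way. Its within-group values fell with those of Slc6a5 (r = −0.533, rho = −0.477, permutation adjusted p = 0.00162 and 0.00531) and with the nuclei markers (r = −0.623, rho = −0.582, permutation adjusted p = 0.00015 for each). Without the 2 farthest libraries these were r = −0.447 and −0.595. Without the 5 libraries highest in Slc6a5 they were −0.356 and −0.493. Libraries with more Slc17a6 and Meis2 transcript therefore had lower Kit levels in TPM. Within groups, Kit and Slc6a5 also had r = 0.55 and −0.61 with the mean of the granule cell markers. With the brainstem marker Dbh these values were −0.39 and 0.47, and with the mean of the oligodendrocyte markers −0.05 and 0.52. Which tissue these relations reflect was not tested.

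**Figure D2:**
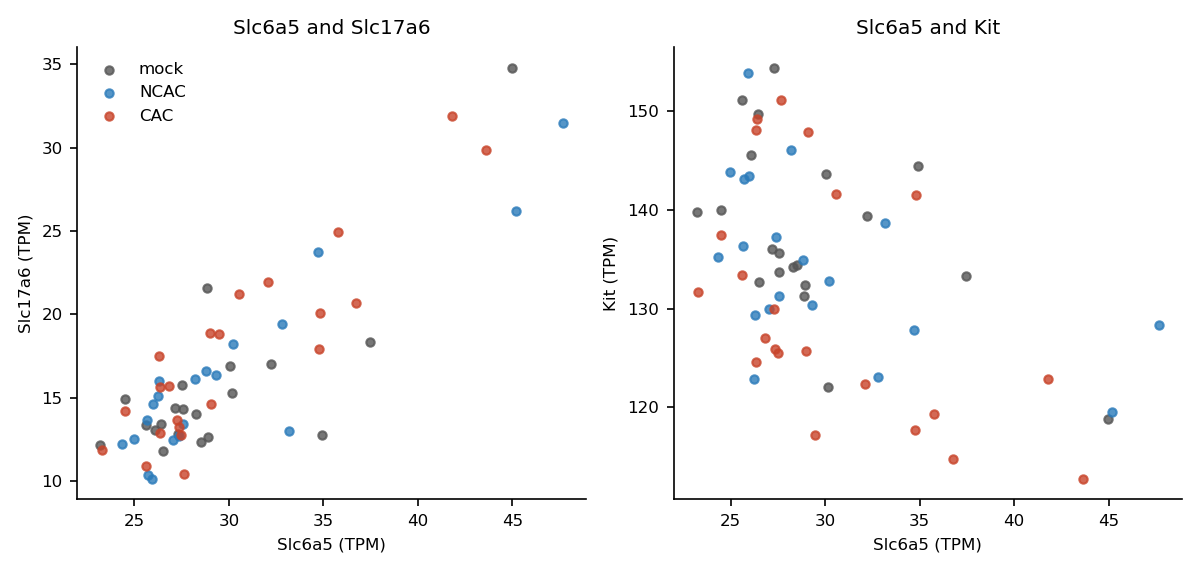
Each point is 1 of 62 libraries, with Slc6a5 in TPM on the horizontal axis of both panels and Slc17a6 (left) or Kit (right) in TPM on the vertical axis, coloured by treatment; the axes do not start at 0. The 5 libraries above 41 TPM of Slc6a5 come from mock, NCAC and CAC and are the 5 highest in Slc17a6, and their Kit levels lie between 113 and 128 TPM.

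Group differences in Kit were small. At 6 wk the CAC libraries read 115, 113, 117, 148 and 118 TPM, and the mock libraries 144, 134, 132, 134 and 136 TPM. Of the CAC libraries, 4 lay below every mock library and replicate 4 lay above all of them. The difference of −0.16 ± 0.065 (log2, SE) did not pass (limma adjusted p = 0.189). At 8 wk it was −0.07 ± 0.060 (limma adjusted p = 0.458). Within CAC, Kit at 8 wk stood at −0.11 ± 0.060 relative to 2 wk and did not pass (limma adjusted p = 0.184). With the brainstem marker Dbh, the 1 gene of that list that passed the level filter, as a covariate this was −0.16 (limma adjusted p = 0.0389). With the mean of Slc17a6 and Meis2, a covariate chosen after seeing the data, it was −0.15 (limma adjusted p = 0.0245). Both values passed the threshold. Over the 12 alternative settings of this comparison, these 2 included, 1222 to 2844 of all genes were called. Without a covariate, Kit in mock stood at −0.07 ± 0.065 at 8 wk relative to 2 wk (limma adjusted p = 0.802). The change in the CAC to mock difference of Kit was −0.05 ± 0.088 (limma adjusted p = 0.846). Mast cells also carry Kit. None of 7 mast cell markers passed the level filter, and their sum reached at most 0.385 TPM in any library. The part of mast cells in the Kit level was not tested.

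Lgi2 had the largest change of the 9 genes at 8 wk. It encodes a secreted leucine-rich protein of the family that binds ADAM receptors at synapses and is enriched in Golgi cells among cerebellar neurons. The 7 CAC libraries read 172, 136, 102, 131, 128, 163 and 153 TPM, and the 5 mock libraries 112, 106, 96.8, 95.04 and 109.8 TPM. All CAC libraries but replicate 3 lay above every mock library, as they did above every NCAC library (102 ± 8.3 TPM, SD, n = 5). The difference from mock was 0.42 ± 0.082 (log2, SE), 1.34-fold on the TPM + 1 scale (limma adjusted p = 0.000204), and that from NCAC was 0.44 ± 0.082 (limma adjusted p = 0.000269).

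Lgi2 was already higher in some CAC libraries at earlier weeks. At 4 wk the CAC libraries read 102, 144.6, 102, 121 and 105 TPM, and the mock libraries 91.8, 105, 97.9, 98.7 and 108 TPM. The difference of 0.18 ± 0.089 (log2, SE) rested on 2 libraries and did not pass (limma adjusted p = 0.605). At 6 wk the CAC libraries read 147, 127, 137, 105 and 133 TPM, the mock libraries 108, 105, 112, 104 and 103 TPM, and the NCAC libraries 99.5, 88.6, 99.7, 100.7 and 117 TPM. Of the 5 CAC libraries, 4 were above every mock and every NCAC library. The difference passed against NCAC (0.36 ± 0.089, limma adjusted p = 0.0107) but not against mock (0.28 ± 0.089, limma adjusted p = 0.0884). The call against NCAC was lost without CAC replicate 1 (adjusted p = 0.0579) and when the compared groups were fitted alone (adjusted p = 0.0557).

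Prkcd encodes protein kinase C delta, a diacylglycerol-activated kinase that is found in molecular layer interneurons and also in some Purkinje cells. In CAC at 8 wk the libraries read 97.9, 90.0, 64.9, 78.2, 69.8, 88.3 and 77.2 TPM, and the mock libraries 58.0, 69.7, 68.2, 68.7 and 68.8 TPM. As for Lgi2, 6 CAC libraries lay above all mock libraries, and replicate 3 did not. The margin was smaller, since CAC replicate 5 (69.76 TPM) barely exceeded the highest mock library (69.75 TPM). The difference was 0.27 ± 0.070 (log2, SE; limma adjusted p = 0.00459) against mock and 0.28 ± 0.070 (limma adjusted p = 0.00454) against NCAC. At 6 wk it was 0.11 ± 0.075 against mock (limma adjusted p = 0.509).

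Pvalb had the smallest change of the 3 genes. In CAC at 8 wk the libraries read 1908, 1868, 1655, 1842, 1849, 1734 and 1912 TPM, and the mock libraries 1562, 1652, 1676, 1760.0 and 1632 TPM. Of the CAC libraries, 5 lay above every mock library, and replicates 3 and 6 lay within the mock range. The difference was 0.14 ± 0.031 (log2, SE), 1.101-fold on the TPM + 1 scale (limma adjusted p = 0.000965). Against NCAC it was 0.14 ± 0.031 (limma adjusted p = 0.00158). After quantile normalization, which keeps only each gene's rank within a library, it was 0.01 against mock (limma adjusted p = 0.915) and 0.01 against NCAC (limma adjusted p = 0.949), so neither call held. Pvalb's rank among all genes had a median of 27 in each of the 3 groups at 8 wk, so the higher TPM did not bring a higher median rank.

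In CAC against mock at 8 wk, 3 of the 9 genes were called, all higher, where 20.8% of all tested genes were called and 13.4% were called higher. The median difference was 0.06 (log2) over the 9 genes and 0.02 over all tested genes. When only the CAC and mock groups at 8 wk were fitted, 1 of the 9, Lgi2, kept its call. Prkcd then had an adjusted p of 0.0756 and Pvalb one of 0.0535. CAC replicate 3 was the lowest CAC library for all 3 genes, and without it the differences were 0.49 for Lgi2, 0.32 for Prkcd and 0.16 for Pvalb. Against NCAC at 8 wk the same 3 genes were called, again higher, with 11.8% of all genes called and 7.76% called higher. There, too, Lgi2 alone was called when the compared groups were fitted alone.

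Earlier weeks and the other tumour gave few calls. Against NCAC at 6 wk, 2 of the 9 genes were called (Gad2 and Lgi2), with 9.45% of all genes called. Against mock, none of the 9 was called in CAC at 2, 4 or 6 wk by limma. Of all genes, 0%, 0.00694% and 1.72% were called in those weeks. An unadjusted limma p under 0.05 was found for 0, 1 and 3 of the 9. Over all 14399 tested genes it was found for 697, 1149 and 2297. Leaving out CAC replicate 4 (low in Lgi2, high in Kit) at 6 wk brought 2 calls, with the share of all genes not counted. Neither was any of the 9 called in NCAC against mock. There 0.0139% of genes were called at 2 wk and 0% in the other weeks. None of the 9 had an unadjusted limma p under 0.05 in any week. Of all tested genes, 780, 306, 1202 and 1038 did at 2, 4, 6 and 8 wk. The estimates in NCAC at 8 wk were −0.02 ± 0.089 for Lgi2, −0.02 ± 0.075 for Prkcd and 0.00 ± 0.033 for Pvalb (log2, SE).

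**Figure D3:**
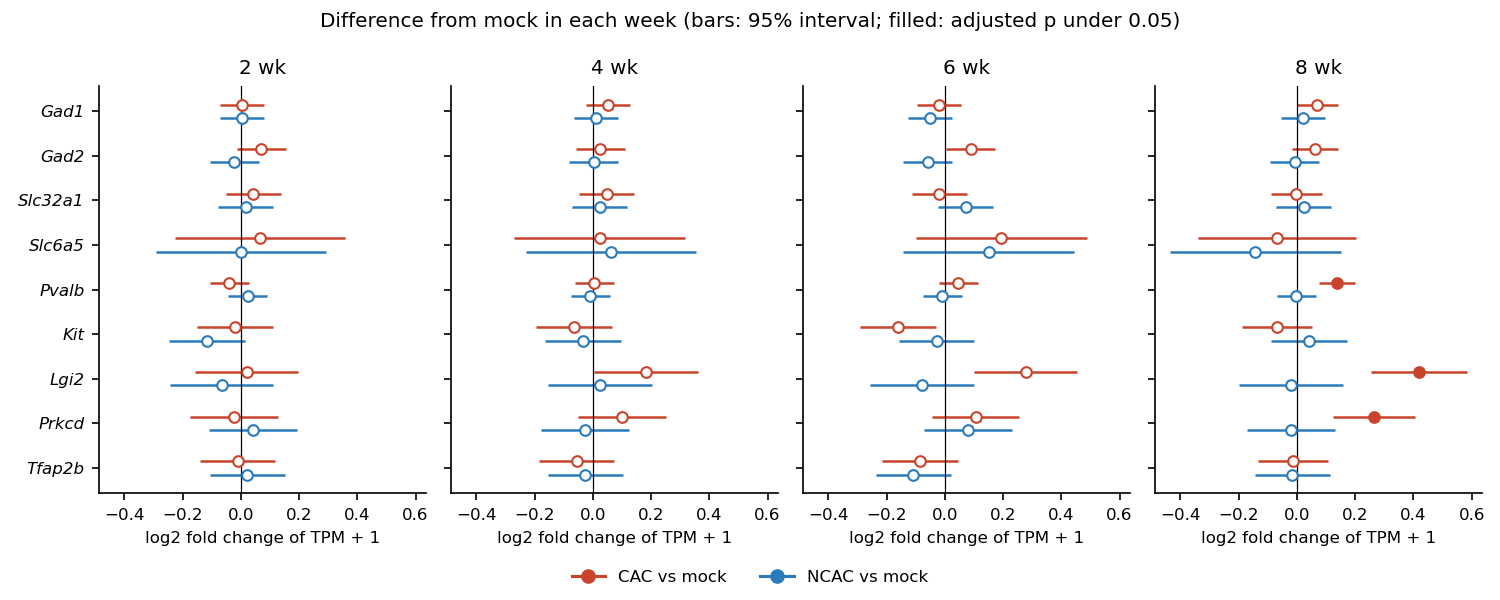
Difference from mock of each gene on the log2(TPM + 1) scale (horizontal axes) in CAC (red) and NCAC (blue) at each week, with 95% intervals as bars; filled points passed the adjusted p threshold of 0.05. The filled points are Pvalb, Lgi2 and Prkcd in CAC at 8 wk, and the interval of Slc6a5 is the widest in every panel.

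A second question was whether a group changed between 2 and 8 wk. Within CAC the same 3 genes were higher at 8 wk than at 2 wk, with 17.9% of all genes called and 8.26% called higher. The rise was 0.48 ± 0.082 for Lgi2 (limma adjusted p = 3.41e-05), 0.29 ± 0.070 for Prkcd (limma adjusted p = 0.00256) and 0.17 ± 0.031 for Pvalb (limma adjusted p = 7.49e-05). After quantile normalization the Pvalb value was 0.03 (limma adjusted p = 0.577), and with the compared groups fitted alone the Prkcd call was lost (limma adjusted p = 0.0707). None of the 9 was called within mock (0% of genes called) or within NCAC (0.0486% called). The change in the CAC to mock difference from 2 to 8 wk tests whether the rise exceeded that of mock animals. It passed for 1 of the 9 genes, with 1.55% of all genes called. That gene was Pvalb, at 0.18 ± 0.046 (limma adjusted p = 0.0362). For Lgi2 it was 0.40 ± 0.12 (limma adjusted p = 0.0664) and for Prkcd 0.29 ± 0.10 (limma adjusted p = 0.128). The Pvalb call was lost under several alternatives, among them median-of-ratios scaling (adjusted p = 0.0631) and quantile normalization (0.05, adjusted p = 0.607). No gene of the 9 was called without CAC 2 wk replicate 1, 3 or 4, mock 2 wk replicate 1 or 4, CAC 8 wk replicate 1, 2 or 7, or mock 8 wk replicate 1 or 3, and 3 were called without CAC 8 wk replicate 3. The same change in NCAC passed for none of the 9, with 0% of genes called.

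Tfap2b, the AP-2 transcription factor kept by mature molecular layer interneurons, had group means from 37.0 to 39.9 TPM. Its lowest, median and highest CAC libraries at 8 wk were 32.5, 36.2 and 44.8 TPM, and the mock libraries ran from 35.3 to 40.9 TPM. The CAC libraries lay on both sides of the mock range, and the difference was −0.01 ± 0.060 (log2, SE; limma adjusted p = 0.906).

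The genes did not move as 1 block within groups. Of the 36 pairs of genes, 9 had a positive and 4 a negative correlation with an adjusted permutation p under 0.05, and the median r was 0.106. The closest pair was Gad1 and Gad2 (r = 0.607, rho = 0.597, permutation adjusted p = 0.00015 for each, r = 0.551 without the 2 farthest libraries). Gad1 also followed Tfap2b (r = 0.493, rho = 0.518, permutation adjusted p = 0.00146 and 0.00157, r = 0.517 without the 2 farthest). Lgi2 and Prkcd, which rose together in CAC at 8 wk, had r = 0.443 within groups (permutation adjusted p = 0.0388) but rho = 0.259 (permutation adjusted p = 0.185) and r = 0.295 without the 2 farthest libraries, so this relation rested on few libraries. Kit and Lgi2 ran in opposite directions (r = −0.467, rho = −0.422, permutation adjusted p = 0.00405 and 0.0144, r = −0.421 without the 2 farthest).

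**Figure D4:**
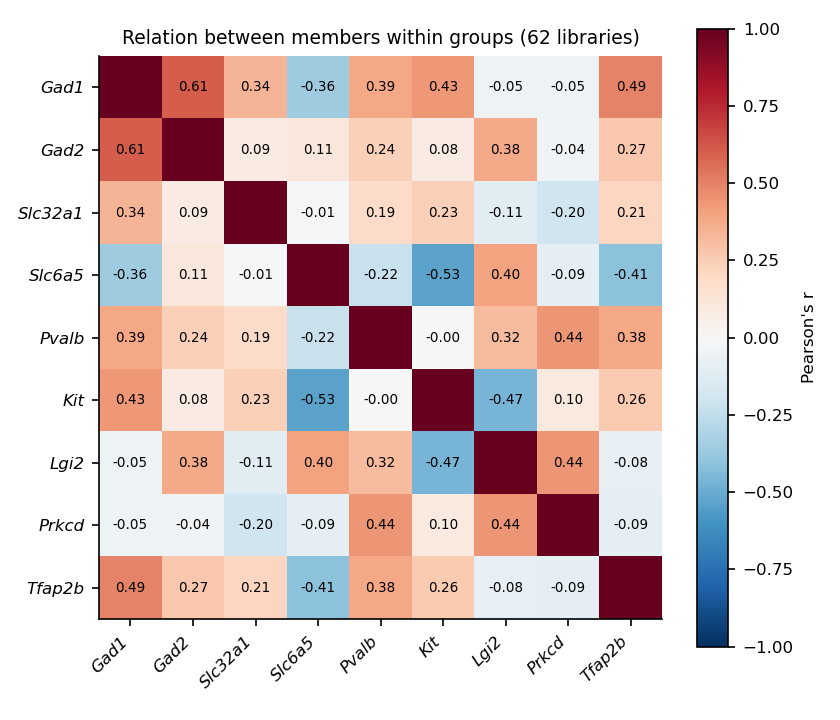
Pearson's r between each pair of the 9 genes over 62 libraries, on log2(TPM + 1) after subtracting group means, with the value in each cell and red for positive, blue for negative. Gad1 and Gad2 are the most positive pair (0.61) and Slc6a5 and Kit the most negative (−0.53).

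Each gene was also set beside the 3 tested genes whose within-group values were most like its own over the 62 libraries, as a description, since all values share the same libraries. Gad1 was nearest to Dner (r = 0.782), a ligand of the Notch pathway made by Purkinje cells, then to Inpp5a (0.683) and Calb1 (0.633), the calbindin of Purkinje cells. Pvalb was nearest to Nsg1 (0.674) and to the Purkinje marker Ppp1r17 (0.666). Kit was nearest to the guidance cue gene Ntn1 (0.816), Pvrl1 (0.735) and the cannabinoid receptor gene Cnr1 (0.726), which is carried by molecular layer interneurons. Slc6a5 was nearest to Meis2 (0.858), Rasgrf2 (0.846) and Slc17a6 (0.839). The nearest to Lgi2 were Heph (0.828), Asl (0.818) and Apod (0.816). Prkcd was nearest to Rom1 (0.736), and Tfap2b to the glycine-cleavage gene Gldc (0.680), with its paralog Tfap2a among the 3 nearest (0.636).

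Genes that make, move and receive the same transmitters were counted next, in CAC against mock at 8 wk, the comparison in which 20.8% of all tested genes were called. Of 18 tested genes of GABA metabolism and transport, 4 were called higher and 2 lower, with a median of 0.07 (log2), against 0.02 over all genes. Glul, the glutamine synthetase of astrocytes, rose by 0.72 ± 0.13 (limma adjusted p = 9.43e-05), and Slc38a3, a glutamine exporter of astrocytes, fell by 0.26 ± 0.055 (limma adjusted p = 0.000395). Glul and Slc38a3 are glial and concern the glutamine supply, so the called genes of this list are not all interneuron genes.

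Of 12 tested genes of glycine synthesis, transport and reception, 2 were called lower and none higher (median −0.07). They were Slc7a10, an astrocyte transporter of small neutral amino acids, at −0.44 ± 0.066 (limma adjusted p = 6.4e-06), and Slc6a9 (GlyT1), the glial glycine transporter, at −0.25 ± 0.046 (limma adjusted p = 0.000105). Slc6a5, the neuronal counterpart of Slc6a9, stood at −0.07 ± 0.14 (limma adjusted p = 0.763). Of 21 tested genes of the inhibitory postsynapse, 1 was called, the GABA-A receptor subunit Gabra2, lower by 0.38 (estimate −0.38 ± 0.076, limma adjusted p = 0.000283), and the list's median was −0.01.

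The interneuron types were read through lists of their markers in the same comparison. Of 13 tested molecular layer interneuron markers, 2 were called higher, Prkcd and Pvalb, and none lower (median −0.01). Members of this list were set beside the mean of its other genes, within groups over the 62 libraries. Pearson's r was −0.08 for Prkcd, 0.03 for Pvalb, 0.17 for Slc32a1, 0.45 for Gad1, 0.45 for Tfap2b and 0.76 for Kit. With the mean of the Purkinje markers it was 0.02 for Prkcd and 0.62 for Pvalb. Of 9 tested Golgi and Purkinje layer interneuron markers, Lgi2 was called higher and Klhl1 lower (−0.28 ± 0.090, limma adjusted p = 0.0204), with a median of −0.02. With the mean of the other genes of this list, Pearson's r was 0.01 for Lgi2 and 0.59 for Slc6a5. None of 7 tested transcription factors of the lineage was called by limma (median −0.03). Among them Gata2 had an unadjusted p under 0.05, at 0.19 ± 0.092 (limma adjusted p = 0.129), as did 4882 of all tested genes.

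Partners of the individual proteins were counted too. Of 20 genes of the Kit pathway, 6 were called higher and 3 lower (median 0.03). The phosphatase gene Ptpn11 rose by 0.25 ± 0.043 (limma adjusted p = 4.46e-05) and Pik3r1, a regulatory subunit of PI3 kinase, by 0.25 ± 0.052 (limma adjusted p = 0.000475). Kitl, the ligand of Kit, fell by 0.14 ± 0.051 (limma adjusted p = 0.0394). Of 11 genes of the LGI and ADAM family, 3 were called higher and 1 lower (median −0.02). Beside Lgi2 these were Lgi3 (0.28 ± 0.075, limma adjusted p = 0.00498) and the receptor gene Adam11 (0.24 ± 0.085, limma adjusted p = 0.0322), higher, and Adam23 (−0.14 ± 0.035, limma adjusted p = 0.00408), lower.

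Of 9 protein kinase C genes, Prkcd was the only one called (median 0.07). Of 11 genes of calcium binding and fast firing, Pvalb and the sodium channel gene Scn1a (0.17 ± 0.047, limma adjusted p = 0.00665) were called higher and none lower (median 0.00). In NCAC against mock at 8 wk, no gene of these lists was called by limma, and 1038 of all tested genes had an unadjusted p under 0.05.

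Other cell types moved beside these results. The summed Purkinje markers ranged from 6573 to 7803 TPM in mock and from 6358 to 7465 TPM in CAC at 8 wk, and 1 of 15 was called higher and 1 lower. The granule cell markers summed to 6181 to 7436 TPM in mock and 6003 to 7184 TPM in CAC. Of 13 granule cell markers, Chn2 was called higher (0.26 ± 0.048, limma adjusted p = 9.43e-05) and Car4 (−0.56 ± 0.15, limma adjusted p = 0.00497) and Slc17a7 (−0.15 ± 0.055, limma adjusted p = 0.0487) lower. Of 10 oligodendrocyte markers, 8 were called lower in CAC and none higher (median −0.31). Of 11 Bergmann glia and astrocyte markers, 4 were called higher and 3 lower. Brainstem markers summed to 2.15 to 32.5 TPM in mock and to 1.58 to 8.49 TPM in CAC at 8 wk, and 1 of 15, Dbh, passed the level filter. The part of these levels in the differences of Lgi2, Prkcd and Pvalb was not tested, except that the 3 calls held with Dbh alone, or with the mean of Slc17a6 and Meis2, as a covariate.

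The 9 genes lie on 6 chromosomes of the mm10 build, as annotated in GENCODE M21. Gad1 is at chr2:70553072-70602014, Gad2 at chr2:22622205-22693874 and Slc32a1 at chr2:158610767-158615748, all on the plus strand. Slc6a5 is at chr7:49910146-49963856, Kit at chr5:75574916-75656722 and Tfap2b at chr1:19208914-19238576, also on the plus strand. Pvalb at chr15:78191114-78206400, Lgi2 at chr5:52533517-52566462 and Prkcd at chr14:30595354-30626210 are on the minus strand.

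Across the whole series, the TPM columns keep no sequencing depth, so the depth behind each value is unknown and no counting interval is given. Between-library correlations of log2(TPM + 1) ran from 0.975 to 0.995 and no 2 libraries were identical. Replicates are labelled biological but are not linked to numbered animals, so p-values measure the spread between these libraries. Of the 2990 genes called in CAC against mock at 8 wk, 1933 were higher and 1057 lower; the split was 1520 higher and 1497 lower after median-of-ratios scaling and 1471 higher and 1657 lower after quantile normalization.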

How the data were processed

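The authors deposited 1 table of TPM per gene symbol for 62 cerebellum libraries. Per the labels' protocols, RNA was extracted with Trizol and sequenced from a stranded mRNA kit. Per the submitters' processing notes the build was mm10. For aligner, quantifier and annotation, the entry is: not given in the sources used here. Depth is unknown. Groups came from the sample descriptions. The treatment field, which names cachectic cells for every sample, and a mention of LLC cells were not used. The members and lists were chosen with earlier results of these data known.

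Values were analysed as log2(TPM + 1), which understates changes of low genes, for 14399 symbols with a mean of at least 1 TPM. All 12 groups were fitted together in limma 3.58.1 (R 4.3.3; eBayes with trend, 50 residual degrees of freedom, no covariate). Two-sided p-values were Benjamini-Hochberg adjusted over all tested symbols within each of 17 comparisons, with a threshold of 0.05. Comparisons in a week share their groups. All 9 genes are named. From each of 24 lists (256 genes, 214 tested) up to 3 others could be named, those with the smallest p in CAC against mock at 8 wk. Kitl and Gm14205, outside this rule, were named after their values were seen. Correlations used values less the group mean, with 100000 permutations within groups and adjustment over 45 relations. The procedure was tested on simulated data. Alternatives were another pseudocount, filter, scaling, weighting, block, covariate, sample set and minimum fold.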

Additional observations from a re-analysis of the deposited data

Results flagged for a closer look

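In 11 of 108 combinations of gene and group, 1 library stood apart from the others of its group by Dixon's test at the 95% level, and chance flags about 1 in 20. For Slc6a5 it was the highest library in mock at 6 wk (replicate 1, 34.9 TPM, against 27.5 to 28.9 in the others), in mock at 8 wk (replicate 1, 44.99 TPM, against 24.5 to 28.9) and in CAC at 8 wk (replicate 1, 35.8 TPM, against 24.5 to 29.0). For Prkcd it was the lowest mock library at 2 wk (replicate 5, 62.2 TPM, against 67.2 to 69.0), at 4 wk (replicate 1, 62.6 TPM, against 68.6 to 70.1) and at 8 wk (replicate 1, 58.0 TPM, against 68.2 to 69.7). Mock 8 wk replicate 1 was thus high in Slc6a5 and low in Prkcd, and without it the Prkcd difference from mock at 8 wk had an adjusted p of 0.0350 in limma.

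For Kit the highest library stood apart in mock at 6 wk (replicate 1, 144 TPM, against 132 to 136) and in CAC at 6 wk (replicate 4, 148 TPM, against 113 to 118). For Gad2 it was the highest in CAC at 6 wk (replicate 3, 122 TPM, against 107 to 111) and in NCAC at 8 wk (replicate 3, 107.5 TPM, against 102 to 103). For Slc32a1 it was the highest in NCAC at 6 wk (replicate 1, 202 TPM, against 179 to 184).

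The CAC to mock difference of Pvalb changed between 2 and 8 wk by 0.18 (log2), as tested by the contrast of the 2 differences in limma (adjusted p = 0.0362). The call was lost under several alternatives: the adjusted p was 0.0631 after median-of-ratios scaling, 0.0659 without a filter, 0.137 with the compared groups alone and 0.607 after quantile normalization, where the value was 0.05.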

How the results depend on the processing

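The count of the 9 genes called was 0 throughout in 11 of the 17 comparisons. For CAC against mock at 6 wk the count was 0 in the unweighted fit of all 62 libraries. The count was 1 with sample weights and 0 to 2 when 1 library was left out, where calls over all genes were not counted. When the compared groups were fitted alone it was 1 for CAC against mock and 1 for CAC against NCAC at 8 wk, and 0 for CAC against NCAC at 6 wk. That 6 wk count (2) was 1 after median-of-ratios scaling, 1 after quantile normalization, 1 with a minimum fold of 1.2 and 1 to 3 when 1 library was left out (1 without CAC replicate 1 or 3 or NCAC replicate 2, 3 without CAC replicate 4). At 8 wk the counts against mock and NCAC and within CAC stayed at 3 whichever library was left out. Within CAC (8 against 2 wk) the count was 2 to 4 over the other settings and Kit was called with the brainstem covariate (Dbh alone) or the nuclei covariate (Slc17a6 and Meis2). The change in the CAC to mock difference (1) was 0 without a filter, 0 after median-of-ratios scaling, 0 after quantile normalization, 0 with the compared groups alone, 0 with a minimum fold of 1.2, 3 with sample weights, 2 with a brainstem covariate and 0 to 3 when 1 library was left out (3 without CAC 8 wk replicate 3). The causes were not tested.

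Replicate numbers did not pair the libraries: 16 of 60 same-numbered pairs correlated over 0.1, no comparison had every pair over it, and 17 libraries correlated best with their own number. With the replicate block the count for the change in the difference was 0 (Pvalb adjusted p = 0.0846), no other count of the 9 genes moved, and the calls over all genes fell from 2990 to 1921 for CAC against mock at 8 wk, from 1695 to 802 for CAC against NCAC at 8 wk, from 2575 to 1582 for CAC at 8 against 2 wk and from 223 to 34 for the change in the difference.

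Counts over all genes with the compared groups alone were 1648, 685, 1359 and 46 in the same order, and 348 for CAC against NCAC at 6 wk (1361 in the fit of all groups). With a minimum fold of 1.2 they were 1215, 785 and 1222 for the first 3 and 528 at 6 wk. With sample weights they were 2630 for CAC against NCAC at 8 wk, 2624 at 6 wk and 722 for the change in the difference, which was 92 without a filter. Leaving out 1 library gave 247 to 1690 for CAC against NCAC at 6 wk, 1101 to 2304 at 8 wk and 51 to 669 for the change in the difference. The split of calls for CAC against NCAC was 1075 higher and 286 lower at 6 wk (443 and 622 after median-of-ratios scaling) and 1117 and 578 at 8 wk (825 and 897). The nuclei covariate was chosen after seeing the data.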
